A study of Mus musculus with 178 samples.

Results

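The interferon-stimulated genes described here are 47 mouse genes, matched by symbol to a list that was drawn up with earlier results of these data known, out of 55450 gene entries in the count table. They were followed in whole blood of 45 C57BL/6J mice of both sexes, 6 to 8 weeks old, that carried tumors of 4MOSC1 cells, a carcinogen-induced oral squamous carcinoma line, injected into the tongue or the buccal mucosa. All mice received an antibody against PD-1 (clone RMP1-14), and no untreated or tumor-free group was analysed here. Blood was taken on Day 4, before treatment, and on treatment on Days 9, 17 and 24, and the RECIST criteria of tumor size put 15 mice among the responders and 30 among the non-responders. The figure legend and the methods of the paper give different start days for the treatment, both before Day 9. Bulk RNA sequencing gave 178 libraries. On Days 4, 9, 17 and 24 there were 15, 15, 14 and 15 libraries of responders and 29, 30, 30 and 30 of non-responders. Mice are numbered within each response group by their ear tags.

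Interferons are secreted proteins that warn cells of infection. Type I interferons bind the receptor of Ifnar1 and Ifnar2, and the kinases Jak1 and Tyk2 then activate transcription factors that include Stat2, which joins Irf9 in a complex that binds the interferon-stimulated response element (ISRE) in promoters. Type II interferon (Ifng) acts through Ifngr1 and Ifngr2 and a promoter motif called the GAS element. The genes induced in this way encode sensors of viral nucleic acid, proteins that block viral RNA and its translation, and factors that amplify or end the response, and in blood they are made by leukocytes of many kinds.

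Promoter sequence was available for 36 of the 47 members (RefSeq, GRCm38.p6, 250 bases before to 50 after the start of transcription). The core of the ISRE, searched as GAAA followed after any 2 bases by GAAA again, occurred on either strand in 21 of these 36 members (58.3%) and in 3.99% of all 27025 genes with a promoter entry. The GAS letters TTCNNNGAA occurred in 8 of the 36 members (22.2%) and in 9.55% of all genes. Both motifs were present in 5 members, in 1 of which matches overlapped. A match shows only that these letters are there. The last 200 bases before the start, printed 5′ to 3′ in the direction of transcription with ISRE matches in capitals, are given for the members that the comparisons turn on.
Oas1g (chr5:120887614-120887813, - strand): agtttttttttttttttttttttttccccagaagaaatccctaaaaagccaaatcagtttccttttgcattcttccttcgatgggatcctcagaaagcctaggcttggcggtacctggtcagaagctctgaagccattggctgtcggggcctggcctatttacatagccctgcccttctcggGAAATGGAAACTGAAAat
Oas1a (chr5:120907526-120907725, - strand): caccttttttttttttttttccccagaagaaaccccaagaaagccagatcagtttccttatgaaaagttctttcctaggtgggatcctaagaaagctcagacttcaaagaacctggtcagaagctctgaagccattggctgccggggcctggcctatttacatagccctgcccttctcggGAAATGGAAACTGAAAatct
Ifit3 (chr19:34583329-34583528, + strand): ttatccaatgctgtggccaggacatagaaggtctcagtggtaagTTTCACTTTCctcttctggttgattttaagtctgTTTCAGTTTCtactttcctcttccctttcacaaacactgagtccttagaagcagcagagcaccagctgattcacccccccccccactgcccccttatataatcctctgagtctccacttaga
Isg15 (chr4:156200819-156201018, - strand): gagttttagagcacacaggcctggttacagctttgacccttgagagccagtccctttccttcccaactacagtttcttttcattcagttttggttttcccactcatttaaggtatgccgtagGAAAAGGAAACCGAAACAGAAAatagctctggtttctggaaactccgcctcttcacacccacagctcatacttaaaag
Rsad2 (chr12:26456453-26456652, - strand): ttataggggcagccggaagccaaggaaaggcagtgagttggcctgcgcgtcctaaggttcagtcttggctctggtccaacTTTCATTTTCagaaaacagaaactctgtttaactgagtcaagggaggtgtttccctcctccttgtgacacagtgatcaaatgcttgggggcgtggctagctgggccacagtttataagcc
Isg20 (chr7:78913224-78913423, + strand): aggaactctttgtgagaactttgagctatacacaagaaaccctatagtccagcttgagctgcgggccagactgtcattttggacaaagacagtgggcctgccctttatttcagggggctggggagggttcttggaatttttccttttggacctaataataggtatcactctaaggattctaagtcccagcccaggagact
Igtp (chr11:58199356-58199555, + strand): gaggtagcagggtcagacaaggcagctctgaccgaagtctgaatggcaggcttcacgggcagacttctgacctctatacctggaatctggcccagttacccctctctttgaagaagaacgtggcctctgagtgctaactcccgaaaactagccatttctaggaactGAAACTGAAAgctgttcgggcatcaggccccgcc
The windows of Oas1g and Oas1a ended in the same run of overlapping matches close to the start, the window of Isg15 held 3 matches, and that of Isg20 held none.

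Levels below are log2 CPM, the share of a library's counts on a log scale, after TMM scaling, a scaling that makes libraries of different composition comparable, and groups are given as lowest, median and highest library. Day by day, the response groups were compared by the quasi-likelihood test of edgeR, where a call needed both an adjusted p (Benjamini-Hochberg) no higher than 0.05 and a change of 1.5-fold or more. Changes between days were fitted within each response group and called on the same adjusted p alone. All 47 members passed the filter on low counts in each of these comparisons.

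Total counts ran from 26058965 to 82208666 per library, of which haemoglobin genes took 68.7% to 88% and the remaining genes 4536700 to 22177361 counts. The Day 24 library of non-responder 29 had by far the lowest TMM factor (0.0848), and the Day 4 libraries of responders 8 and 2 had factors of 0.265 and 0.336. The Day 17 library of non-responder 24 carries the label of a responder, unlike the other libraries of that mouse, and was counted with the non-responders. The ear tags form a 4-digit series (11 responders, 7 non-responders) and a 3-digit series (4 responders, 23 non-responders). Of the marker genes of blood cells, all 7 monocyte, 7 neutrophil, 6 B cell, 6 T cell and 6 red cell genes were above 0 in each library, while of the 5 epithelial genes none was. Mitochondrial genes took a median of 4.80%, 4.08%, 4.44% and 3.83% of the counts outside haemoglobin in responders on Days 4, 9, 17 and 24 and 4.49%, 3.87%, 3.84% and 3.89% in non-responders, with single Day 4 libraries up to 8.58%. This share was lower on Day 9, when the members were higher, and its part in their changes was not tested. In bulk blood, fewer cells of a type and less RNA per cell cannot be told apart.

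Per transcript length, Isg20 was the most abundant member. Isg20 encodes an RNA exonuclease, and its mean over all libraries was 440 TPM, a level corrected for transcript length. Isg15, a ubiquitin-like modifier, followed with 76.7 TPM and Rsad2, which makes a chain-terminating nucleotide (viperin), with 65.9 TPM. Ifi27l2a, a small membrane protein, had 28.2 TPM and Irf7, the transcription factor that drives type I interferon genes, 27.6 TPM. The OAS member Oasl2 had 7.81 TPM, and Ifi44 was the lowest of the 47 with 0.0721 TPM.

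The members as a group rose from Day 4 to Day 9, stayed near that level on Day 17 and fell by Day 24. In responders the mean over the 47 members was 3.29 ± 0.204 log2 CPM on Day 4 (mean ± SD), 3.60 ± 0.133 on Day 9, 3.52 ± 0.220 on Day 17 and 3.07 ± 0.170 on Day 24. In non-responders it was 3.12 ± 0.172, 3.55 ± 0.196, 3.50 ± 0.253 and 3.09 ± 0.203. The mean was higher on Day 9 than on Day 4 in 14 of 15 responders and 28 of 29 non-responders. It was lower on Day 24 than on Day 17 in 13 of 14 responders and 27 of 30 non-responders. From Day 9 to Day 17 mice moved both ways, up in 5 of 14 responders and in 12 of 30 non-responders. The groups of successive days overlapped in each case.

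**Figure D1:**
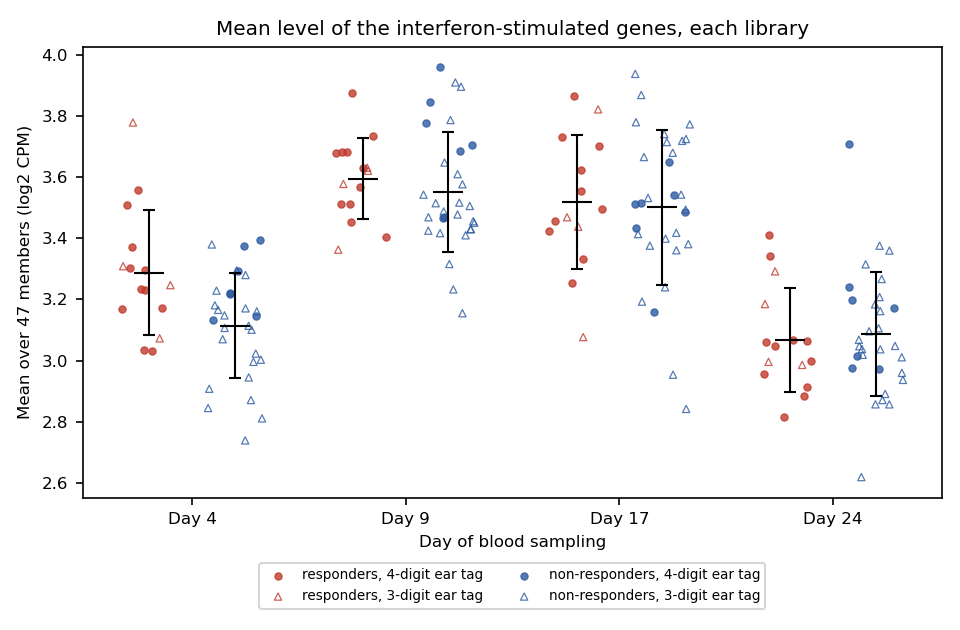
Mean log2 CPM over the 47 members (vertical axis) in each of the 178 libraries by day of sampling, responders in red and non-responders in blue, with filled circles for 4-digit and open triangles for 3-digit ear tags and black bars for the mean ± SD. The Day 9 and Day 17 means lie between 3.50 and 3.60 in both response groups, and the Day 4 and Day 24 means between 3.07 and 3.29.

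The member mean rose from Day 4 to Day 9 and was lower on Day 24 than on Day 17 in both ear tag series. In 4-digit mice the member mean went from 3.27 to 3.61 log2 CPM between Days 4 and 9 in responders and from 3.25 to 3.70 in non-responders. In 3-digit mice it went from 3.35 to 3.55 in responders and from 3.07 to 3.51 in non-responders. On Day 17 the 4-digit mice were at 3.54 in responders and 3.47 in non-responders, and the 3-digit mice at 3.45 and 3.51. From Day 9 the mean thus came down in 4-digit non-responders and stayed level in 3-digit ones, a difference that was not tested. On Day 24 the 4 subgroups stood between 3.05 and 3.18.

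The first question was how the members changed between the sampling before treatment and the first on treatment. In non-responders 38 of the 47 members rose and 1 fell from Day 4 to Day 9, where 23.3% of all genes tested rose and 27.5% fell. In responders 18 rose and 2 fell, against 13.5% and 14.2% of all genes. The median log2 fold change of the members was 0.36 in non-responders and 0.21 in responders, where the median of all genes was -0.014 and 0.008. The difference between the response groups in this change was called for 0 of the 47 members and for 0% of all genes (edgeR), with 6 members at an unadjusted p below 0.05. The difference (responders minus non-responders) was above 0 for 2 of the 47, with a median of -0.13 beside -0.007 for all genes. No single member was thus shown to respond more in non-responders, the larger group. Monocyte markers rose with the members, with median log2 fold changes of 1.11 in non-responders and 0.73 in responders.

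From Day 9 to Day 17 few members changed. In non-responders 1 rose and 6 fell (all genes: 10.3% and 16.2%), and in responders 0 rose and 1 fell (all genes: 1.85% and 3.68%). The fall came between Days 17 and 24, when 35 of 47 members fell and 0 rose in responders, where 9.31% of all genes fell and 9.59% rose, and 42 of 47 in non-responders, where 11.3% fell. The median change was -0.43 in responders and -0.41 in non-responders (all genes: -0.016 and 0.014). In non-responders 2 members, Rsad2 and Isg20, rose over this interval (all genes: 9.86%), with 16 and 15 of 30 mice higher. Neither passed the test when the Day 17 library of non-responder 24 was counted with the responders. Once non-responder 29's library of Day 24 was left out, they had -0.14 and -0.18, and neither was called higher with the mouse as a replicate block (0.07 and 0.04).

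Set against Day 4, Day 24 was lower for 21 members in responders (all genes: 9.94%) and for 17 in non-responders (all genes: 24.8%). The responder count was 12 without the Day 4 libraries of responders 2 and 8, 9 with the monocyte covariate described below and 0 with limma on log2(TPM + 1). In non-responders limma on that scale, where the median of all genes was -0.312, called more members lower than edgeR. By edgeR 0 members were higher in responders (all genes: 7.44%), with 6 of the 47 above 0. These comparisons share the libraries of Days 4 and 24 with those above. In non-responders 6 were higher (all genes: 23.8%), namely Rsad2, Isg20, Isg15, Samd9l, Pnpt1 and Gbp7. The call of Isg15 was lost with the mouse as a replicate block (0.44), and also once non-responder 29's Day 24 sample was dropped (0.20). On log2(TPM + 1) the signs of Isg15, Samd9l and Gbp7 turned, and relative to the median of all genes on that scale they stood at 0.29, 0.24 and 0.15. Over the same interval 4 of 5 NK cell genes fell in each group. Of 5 platelet genes 3 fell in responders and 5 in non-responders, and of 6 T cell genes 4 and 6. Of 7 monocyte genes 2 fell in responders (median -0.51) and 3 rose in non-responders (median -0.09). Of 7 neutrophil genes 4 rose in non-responders. Of 6 red cell genes 5 rose in non-responders (median 1.01) and 0 in responders (median -0.23). Of 6 B cell genes 3 fell in non-responders, and 1 rose and 1 fell in responders. The part of these genes in the Day 24 differences was not tested, apart from the monocyte and red cell covariates.

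The TPM values are scaled to a total that haemoglobin dominates, and on log2(TPM + 1) the median of all genes itself moved by -0.207 from Day 9 to Day 17 and by -0.312 from Day 4 to Day 24 in non-responders. By limma on that scale fewer members passed in the rise and the fall, 3 in responders and 13 in non-responders from Day 4 to Day 9, and 2 and 19 from Day 17 to Day 24, while 27 were called lower in non-responders from Day 9 to Day 17. The shares of all genes called in these fits are not given here, so these counts do not set the members apart from other genes. Relative to that median, 35 of the 38 members tested on that scale were above it from Day 4 to Day 9 in non-responders and 27 of 32 in responders. From Day 17 to Day 24, 38 of 38 were below it in non-responders and 30 of 32 in responders.

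**Figure D2:**
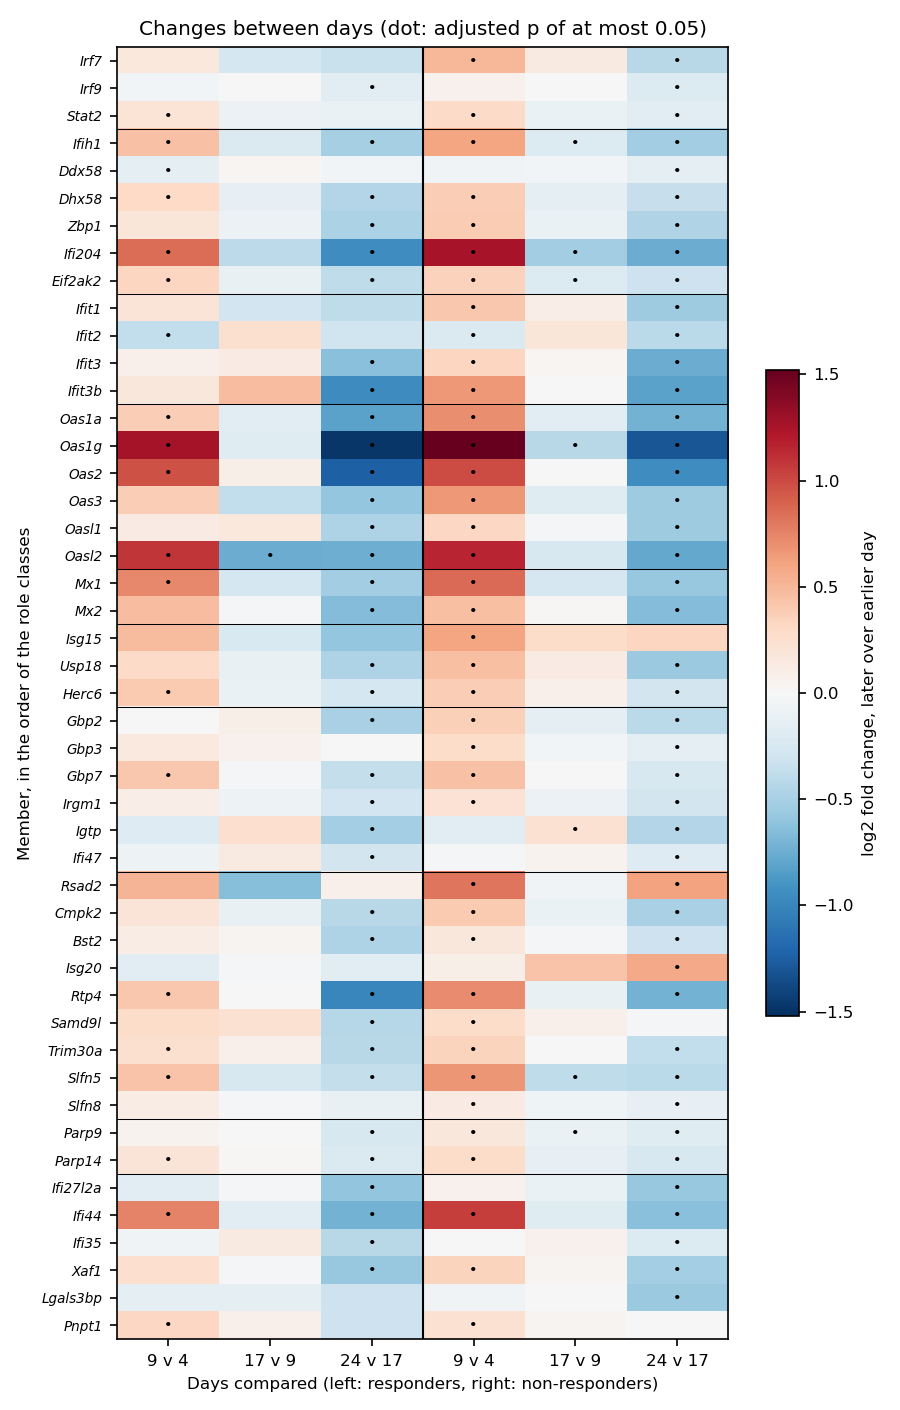
Heat map of the log2 fold change of each member (rows, in the order of the role groups) between successive sampling days, responders on the left and non-responders on the right, with a dot where the adjusted p was at most 0.05. The Day 9 against Day 4 columns are mostly red (18 and 38 called higher), the Day 17 against Day 9 columns pale, and the Day 24 against Day 17 columns mostly blue (35 and 42 called lower).

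The OAS family makes or resembles the enzymes that produce 2'-5' oligoadenylate, the messenger that switches on the RNA-cutting enzyme RNase L. The median log2 fold change of its 6 members from Day 4 to Day 9 was 0.85 in non-responders and 0.67 in responders. Of the 6, 6 rose in non-responders and 4 in responders over this interval. All 6 fell from Day 17 to Day 24 in both groups. Oas1g (chr5:120876142-120887613) is a low-level gene. In non-responders its log2 CPM was -2.49, -1.02 and -0.24 on Day 4, -0.34, 0.46 and 1.36 on Day 9, -1.19, 0.09 and 0.82 on Day 17 and -2.32, -1.24 and -0.17 on Day 24. The Day 4 and Day 9 ranges overlapped only at their ends, and Oas1g was higher on Day 9 in 29 of 29 mice. Its log2 fold change was 1.52 ± 0.13 (SE, adjusted p = 1.05e-19) from Day 4 to Day 9, -0.42 ± 0.12 (SE, adjusted p = 0.00512) from Day 9 to Day 17 and -1.30 ± 0.13 (SE, adjusted p = 5.62e-13) from Day 17 to Day 24. In responders the same gene went from -1.87, -0.90 and -0.46 on Day 4 to -0.99, 0.27 and 0.92 on Day 9 and from -1.40, -0.24 and 1.23 on Day 17 to -2.17, -1.54 and -0.29 on Day 24, with changes of 1.27 ± 0.22 (SE, adjusted p = 1.51e-05) and -1.48 ± 0.22 (SE, adjusted p = 2.49e-06). Oas1g was higher on Day 9 in 13 of 15 responders, and the Day 9 libraries of responders 14 and 15 stayed within the Day 4 range.

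Oas2 (chr5:120730333-120749853) was at 0.30, 1.57 and 2.60 log2 CPM in responders on Day 4 and at 2.36, 2.80 and 3.43 on Day 9, so that the ranges overlapped by the 3 highest libraries of Day 4 and the 3 lowest of Day 9. In non-responders it was at 0.38, 2.01 and 2.81 on Day 4 and at 1.93, 2.92 and 3.65 on Day 9. The changes were 0.97 ± 0.17 (SE, adjusted p = 1.86e-05) in responders and 0.99 ± 0.12 (SE, adjusted p = 1.03e-11) in non-responders. On Day 24 Oas2 was back at 0.81, 1.64 and 2.59 in responders and 1.14, 2.03 and 2.64 in non-responders, where the log2 fold changes from Day 17 were -1.24 ± 0.17 (SE, adjusted p = 6.51e-07) and -0.95 ± 0.12 (SE, adjusted p = 1.28e-08). Over the whole interval from Day 4 its difference was -0.18 ± 0.17 (SE, adjusted p = 0.506) in responders and 0.03 ± 0.12 (SE, adjusted p = 0.859) in non-responders.

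Oasl2, one of the pair of OAS-like genes, rose by 1.16 ± 0.11 (SE, adjusted p = 3.02e-16) in non-responders, from 3.13, 3.94 and 4.89 to 4.52, 5.10 and 6.14. In responders it rose by 1.08 ± 0.17 (SE, adjusted p = 2.17e-06), from 3.51, 4.40 and 5.85 to 4.77, 5.85 and 6.05, and it was the 1 member that then fell between Days 9 and 17, with a log2 fold change of -0.75 ± 0.17 (SE, adjusted p = 0.00315). Oas1a, Oas3 and Oasl1 rose in non-responders by 0.71, 0.66 and 0.32. In responders Oas1a rose by 0.37, while the values of Oas3 (0.38) and Oasl1 (0.13) missed the threshold. Oas1a and Oas1g are near-identical neighbors on chromosome 5, and some deposited counts are not whole, so reads may be shared between genes and their separate levels are uncertain.

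**Figure D3:**
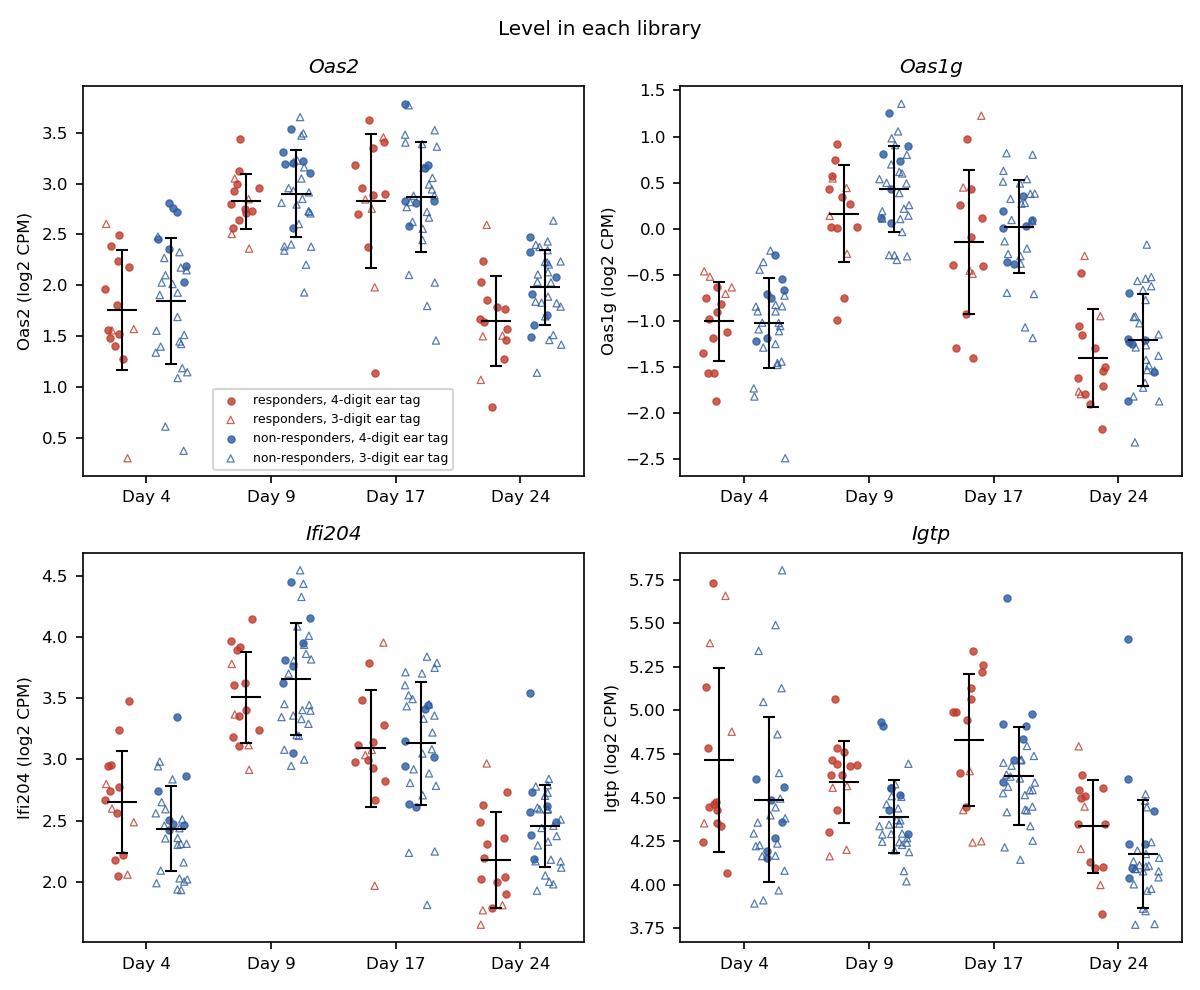
Log2 CPM (vertical axes) of Oas2, Oas1g, Ifi204 and Igtp in each library by day of sampling, with colors, symbols and bars for response, ear tag series and mean ± SD as in the plot of the member mean. Oas2, Oas1g and Ifi204 stand higher on Day 9 than on Day 4 in both response groups, while Igtp has Day 9 medians of 4.63 in responders and 4.35 in non-responders beside Day 4 medians of 4.46 and 4.36.

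The nucleic acid sensors comprise Ifih1 (MDA5) and Ddx58 (RIG-I), which detect viral RNA in the cytoplasm, Dhx58, which tunes them, Zbp1, a sensor of Z-form nucleic acid, Ifi204, a DNA sensor of the Ifi200 family, and Eif2ak2 (PKR), a kinase that stops translation. Of the 6, 5 rose in non-responders and 4 in responders by Day 9. Ifi204 (chr1:173747293-173766943) was at 1.93, 2.44 and 3.34 log2 CPM on Day 4 and 2.95, 3.66 and 4.54 on Day 9 in non-responders, and it was higher on Day 9 in each of the 29 mice. Its rise was 1.25 ± 0.11 (SE, adjusted p = 3.48e-19) in non-responders and 0.85 ± 0.15 (SE, adjusted p = 1.89e-05) in responders. In non-responders it fell to Day 17 with a log2 fold change of -0.53 ± 0.10 (SE, adjusted p = 3e-05) and again to Day 24 with -0.75 ± 0.11 (SE, adjusted p = 1.19e-07), and in responders it fell over the last interval with -0.94 ± 0.15 (SE, adjusted p = 9.31e-06). Related Ifi200 genes may share reads with it. Ddx58 fell to Day 9 in responders, with -0.15 ± 0.05 (SE, adjusted p = 0.0121), and had -0.06 ± 0.03 (SE, adjusted p = 0.139) in non-responders. From Day 4 to Day 24 it fell in non-responders, with -0.25 ± 0.03 (SE, adjusted p = 1.38e-09). Its log2 CPM was 3.94, 4.11 and 4.39 on Day 4 and 3.85, 3.99 and 4.16 on Day 9 in responders, ranges that overlapped widely. In non-responders it was 3.87, 4.18 and 4.38 on Day 4 and 3.14, 3.96 and 4.14 on Day 24, the lowest being the library of non-responder 29. Between Days 17 and 24, 6 of 6 sensors fell in non-responders and 5 of 6 in responders.

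The IFIT proteins bind viral RNA that lacks host cap methylation. Ifit1 was at 2.64, 3.56 and 4.95 on Day 4 and 3.40, 4.08 and 5.05 on Day 9 in non-responders, a rise of 0.41 ± 0.14 (SE, adjusted p = 0.00822). In responders it was at 2.92, 4.06 and 5.87 and 3.72, 4.55 and 5.18, with an estimate of 0.20 ± 0.20 (SE, adjusted p = 0.493) that did not pass. Ifit3 rose by 0.32 ± 0.10 (SE, adjusted p = 0.00656) in non-responders, from 1.97, 2.64 and 2.95 to 2.32, 2.75 and 3.40, and had a value of 0.07 ± 0.14 (SE, adjusted p = 0.734) in responders, from 1.99, 2.67 and 3.02 to 2.08, 2.65 and 3.02. Its close copy Ifit3b rose by 0.66 ± 0.12 (SE, adjusted p = 2.85e-06) in non-responders, from 0.03, 0.84 and 1.39 to 0.74, 1.43 and 2.11. Ifit2 fell in both groups, with -0.37 ± 0.13 (SE, adjusted p = 0.0226) in responders, from 3.31, 3.77 and 4.97 to 3.25, 3.57 and 4.14, and with -0.22 ± 0.08 (SE, adjusted p = 0.0165) in non-responders, from 3.02, 3.71 and 4.94 to 3.17, 3.61 and 4.19. Between Days 17 and 24, 4 of the 4 fell in non-responders and 2, Ifit3 and Ifit3b, in responders. Ifit3 reached 1.36, 2.04 and 2.95 in non-responders on Day 24, with a change from Day 17 of -0.76 ± 0.10 (SE, adjusted p = 7.72e-08), and 1.59, 2.11 and 2.67 in responders, with one of -0.63 ± 0.14 (SE, adjusted p = 0.00079). Reads of Ifit3 and Ifit3b can be split between them, so their separate values are uncertain.

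Mx1 and Mx2 belong to the dynamin-like GTPases, which trap viral components, but C57BL/6 mice carry alleles of both that make no functional protein, and the annotation lists Mx2 as a polymorphic pseudogene. Mx1 was at -1.03, 1.19 and 1.77 on Day 4 and 1.13, 1.89 and 2.74 on Day 9 in non-responders and at -0.51, 0.98 and 1.75 and 1.26, 1.60 and 2.35 in responders. It rose by 0.86 ± 0.13 (SE, adjusted p = 1.21e-08) and 0.74 ± 0.19 (SE, adjusted p = 0.00193), and it fell from Day 17 to Day 24, with changes of -0.58 ± 0.13 (SE, adjusted p = 0.000834) and -0.53 ± 0.19 (SE, adjusted p = 0.0401). When 1 responder at a time was left out, the fall in responders was called in 7 of 15 fits. On Day 4 the libraries spread widely (SD 0.892 in non-responders and 0.748 in responders), and the ranges of the days overlapped. Mx2 rose in non-responders (0.45) and had 0.47 in responders without passing.

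Among the transcription factors, Stat2 rose in both groups, by 0.29 ± 0.05 (SE, adjusted p = 1.05e-07) in non-responders and 0.21 ± 0.07 (SE, adjusted p = 0.0144) in responders. Its log2 CPM went from 3.06, 3.72 and 4.04 to 3.70, 3.92 and 4.28 in non-responders and from 3.10, 3.71 and 3.94 to 3.67, 3.88 and 4.15 in responders. Its partner Irf9 did not pass, with 0.06 ± 0.04 (SE, adjusted p = 0.168) in non-responders and -0.04 ± 0.05 (SE, adjusted p = 0.536) in responders. Irf9 was at 3.76, 4.17 and 4.49 on Day 4 and 4.01, 4.23 and 4.41 on Day 9 in non-responders, with nearly equal medians, and at 3.95, 4.17 and 4.47 and 3.99, 4.14 and 4.32 in responders. It fell from Day 17 to Day 24, with -0.20 ± 0.04 (SE, adjusted p = 2.19e-05) and -0.17 ± 0.05 (SE, adjusted p = 0.00783). Stat2 had -0.17 ± 0.05 (SE, adjusted p = 0.00846) and -0.10 ± 0.07 (SE, adjusted p = 0.32) over that interval. Irf7 rose by 0.50 ± 0.15 (SE, adjusted p = 0.00253) in non-responders, from 5.15, 6.06 and 7.54 to 5.91, 6.72 and 7.68. In responders it started higher, at 5.71, 6.69 and 8.58, and was at 6.51, 7.27 and 7.93 on Day 9, a difference of 0.16 ± 0.21 (SE, adjusted p = 0.621).

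Isg15 is attached to other proteins with the help of ligases such as Herc6 and removed by Usp18, which also damps signaling at the type I receptor. In non-responders 3 of 3 of these genes rose by Day 9, and in responders 1, Herc6 (0.40). Usp18 went from 0.78, 1.45 and 1.92 to 1.16, 1.81 and 2.47 in non-responders, a rise of 0.46 ± 0.11 (SE, adjusted p = 0.000207), and from 1.02, 1.68 and 2.79 to 1.45, 2.06 and 2.42 in responders (0.30 ± 0.14, SE, adjusted p = 0.112). Isg15 rose by 0.60 ± 0.25 (SE, adjusted p = 0.0385) in non-responders, from 4.37, 5.68 and 6.92 to 5.16, 6.30 and 7.56. In responders, at 5.04, 6.75 and 8.41 on Day 4 and 5.95, 7.34 and 8.23 on Day 9, its estimate was 0.49 ± 0.24 (SE, adjusted p = 0.121), and the libraries of Day 4 spread more widely than those of Day 9. Usp18 fell from Day 17 to Day 24, with -0.57 ± 0.11 (SE, adjusted p = 0.000106) in non-responders and -0.47 ± 0.14 (SE, adjusted p = 0.0144) in responders.

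The guanylate-binding proteins (Gbp2, Gbp3, Gbp7) and the immunity-related GTPases (Irgm1, Igtp, Ifi47) attack the vacuoles of intracellular pathogens and are classically induced by interferon gamma. By Day 9, 4 of 6 rose in non-responders and 1, Gbp7, in responders. Gbp7 rose by 0.44 ± 0.05 (SE, adjusted p = 3.17e-12) and 0.41 ± 0.08 (SE, adjusted p = 0.000116), in non-responders from 2.06, 3.15 and 3.56 to 3.18, 3.56 and 3.88 and in responders from 2.62, 3.26 and 3.62 to 3.36, 3.64 and 3.92. Gbp2 rose by 0.36 ± 0.08 (SE, adjusted p = 2.96e-05) in non-responders, from 2.10, 2.89 and 3.78 to 2.74, 3.25 and 4.19, and had 0.01 ± 0.10 (SE, adjusted p = 0.956) in responders, at 2.67, 3.23 and 3.80 and 2.88, 3.17 and 3.55. Igtp followed another course. Its log2 CPM was 3.89, 4.36 and 5.80 on Day 4, 4.02, 4.35 and 4.93 on Day 9, 4.14, 4.60 and 5.65 on Day 17 and 3.77, 4.11 and 5.41 on Day 24 in non-responders. The fitted change to Day 9 was -0.17 ± 0.09 (SE, adjusted p = 0.113) with nearly level medians, and Igtp then rose to Day 17 by 0.24 ± 0.09 (SE, adjusted p = 0.0394), higher in 27 of 30 mice, where it was the 1 member called higher. Relative to the median of all genes on log2(TPM + 1), where its own value was below 0, that step was 0.11. In responders it was at 4.16, 4.63 and 5.07 on Day 9 and 4.24, 4.97 and 5.34 on Day 17, an estimate of 0.25 ± 0.14 (SE, adjusted p = 0.279) with 12 of 14 mice higher. By Day 24, compared with Day 17, 6 of 6 fell in non-responders and 5 in responders, all but Gbp3 (-0.003).

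Of the other antiviral effectors, Rtp4, a receptor chaperone that restrains viral replication, rose by 0.72 ± 0.08 (SE, adjusted p = 1.31e-12) in non-responders, from 1.61, 2.40 and 2.84 to 2.47, 3.00 and 3.67. It fell by Day 24 from 2.28, 3.01 and 3.84 to 1.62, 1.98 and 2.63 in responders, with -0.99 ± 0.12 (SE, adjusted p = 7.61e-08) and in each of 14 mice, and with -0.72 ± 0.08 (SE, adjusted p = 4.42e-10) in non-responders, where 27 of 30 mice were lower. Rsad2 rose by 0.81 ± 0.23 (SE, adjusted p = 0.002) in non-responders, from 6.99, 8.08 and 9.41 to 7.72, 9.11 and 10.29, and had 0.51 ± 0.28 (SE, adjusted p = 0.169) in responders, from 7.34, 9.35 and 11.14 to 8.79, 10.26 and 10.98. Its neighbor Cmpk2, a mitochondrial nucleotide kinase, rose in non-responders (0.39). Bst2 (tetherin), which holds budding virus at the cell surface, rose by 0.17 ± 0.07 (SE, adjusted p = 0.0228) in non-responders, from 1.59, 1.84 and 2.19 to 1.63, 2.03 and 2.43, and had 0.11 ± 0.09 (SE, adjusted p = 0.358) in responders, at 1.41, 2.02 and 2.46 and 1.84, 2.02 and 2.38. Slfn5 rose in both groups (0.67 and 0.43) and fell, with -0.39 ± 0.08 (SE, adjusted p = 6.18e-05), from Day 9 to Day 17 in non-responders, from 4.47, 5.13 and 5.88 to 3.76, 4.80 and 5.34. Samd9l, Trim30a and Slfn8 rose by 0.28, 0.34 and 0.13 in non-responders. Isg20 was the 1 gene of the 9 without a call in either group (0.09 and -0.16).

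Parp9 and Parp14 modify proteins with ADP-ribose and take part in STAT signaling. Both rose in non-responders, Parp14 by 0.28 ± 0.05 (SE, adjusted p = 2.3e-06) from 4.23, 4.85 and 5.18 to 4.83, 5.12 and 5.41, and Parp14 rose by 0.19 in responders. The remaining members were mixed. Ifi44, a cytoplasmic protein with antiviral action, rose by 1.05 ± 0.16 (SE, adjusted p = 2.42e-08) in non-responders, from -2.84, -2.00 and -0.90 to -2.16, -1.24 and -0.16, and by 0.75 in responders, at the lowest TPM of the set. Ifi27l2a did not pass by Day 9, with 0.07 ± 0.09 (SE, adjusted p = 0.563) in non-responders and -0.17 ± 0.12 (SE, adjusted p = 0.321) in responders, and was at 2.96, 3.71 and 4.23 on Day 4 and 3.01, 3.70 and 4.34 on Day 9 in non-responders. By Day 24 it stood at 2.48, 3.07 and 3.57 in non-responders and 2.63, 3.07 and 3.29 in responders, lower than on Day 4 with log2 fold changes of -0.61 ± 0.09 (SE, adjusted p = 5.75e-08) and -0.79 ± 0.12 (SE, adjusted p = 4.28e-05). Lgals3bp, a secreted glycoprotein that binds galectin, was lower on Day 24 than on Day 4 with -0.62 ± 0.08 (SE, adjusted p = 4.84e-10) in non-responders, from 3.33, 3.76 and 5.06 to 2.92, 3.35 and 3.95, and with -0.61 ± 0.13 (SE, adjusted p = 0.0011) in responders, from 3.50, 3.88 and 5.08 to 3.17, 3.60 and 4.11. Ifi35 had -0.33 ± 0.06 (SE, adjusted p = 0.00049) over that interval in responders, from 2.17, 2.57 and 2.85 to 2.09, 2.26 and 2.52.

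Members with and without the ISRE letters printed above both moved. From Day 4 to Day 9 in non-responders, 19 of the 21 members with a match rose, with a median of 0.36, and 9 of the 15 without, with a median of 0.28. From Day 17 to Day 24, 19 of 21 and 12 of 15 fell. Igtp, with 1 match, did not rise by Day 9, and Cmpk2, with 0 matches in its window, did.

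The pathway that controls these genes was followed through the other genes of the list. Of 20 interferon genes only Ifng passed the filter on low counts, 13 were at 0 TPM in each of the 178 libraries, and Ifng averaged 0.082 TPM. Ifng had 0.25 ± 0.27 (SE, adjusted p = 0.512) to Day 9 in responders and -0.01 ± 0.17 (SE, adjusted p = 0.985) in non-responders, and it fell from Day 17 to Day 24 in responders, with -0.85 ± 0.26 (SE, adjusted p = 0.0163). The receptor chains rose by Day 9, 6 of 6 in non-responders and 5 of 6 in responders. Ifnar1 rose by 0.18 in non-responders and 0.26 in responders, Ifnar2 by 0.34 and 0.24, and Ifngr1 by 0.33 in both. Ifngr2 rose by 0.45 ± 0.04 (SE, adjusted p = 2.25e-17) in non-responders and 0.40 ± 0.10 (SE, adjusted p = 0.00109) in responders. Ifnlr1, the chain for lambda interferons, rose by 1.22 ± 0.13 (SE, adjusted p = 8.2e-14) and 1.02 ± 0.22 (SE, adjusted p = 0.000251) and averaged 0.0674 TPM over all libraries.

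Of 19 signaling genes, 8 rose and 5 fell in non-responders by Day 9, and 5 rose and 2 fell in responders. Of all genes 23.3% rose and 27.5% fell in non-responders and 13.5% and 14.2% in responders, so the share of signaling genes that fell was near or below that of all genes. Irf1, a target of the GAS pathway, rose by 0.44 ± 0.04 (SE, adjusted p = 1.42e-20) and 0.27 ± 0.07 (SE, adjusted p = 0.00121). Myd88, the adaptor of Toll-like receptors, rose by 0.63 ± 0.06 (SE, adjusted p = 6.26e-16) and 0.39 ± 0.09 (SE, adjusted p = 0.00123). Tmem173 (STING), an adaptor of DNA sensing, fell, with -0.20 ± 0.04 (SE, adjusted p = 1.57e-06) and -0.22 ± 0.06 (SE, adjusted p = 0.00368), as did Jak1, with -0.19 ± 0.04 (SE, adjusted p = 9.34e-05) and -0.16 ± 0.05 (SE, adjusted p = 0.0127). From Day 9 to Day 17 in non-responders 8 of the 19 fell and 2 rose, and 5 of the 6 receptor chains fell and 0 rose (all genes: 16.2% lower and 10.3% higher). Irf1 and Myd88 fell (-0.31 and -0.30), Ikbke and Mavs rose (0.20 and 0.20), and among the receptor chains Ifngr2 and Ifnlr1 fell (-0.21 and -0.47). In responders Socs1, an inhibitor of the kinases, rose (0.61) with Ikbke (0.35), and Tyk2 and Tmem173 fell (-0.21 and -0.19). Socs1 fell in responders from Day 17 to Day 24 (-0.83), Tmem173 and Irf2 rose there (0.22 and 0.13), and in non-responders Cgas, Ifngr2 and Ifngr1 fell (-0.29, -0.13 and -0.12) and Tmem173 rose (0.14). Against Day 4, Day 24 was lower for Tmem173 (-0.20) in responders. In non-responders it was higher for Socs3 (0.75), Tbk1 (0.15), Ifnlr1 (0.48) and Ifngr2 (0.10), and lower for Tmem173 (-0.21) and Irf8 (-0.20).

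Among 75 further interferon-induced genes, 72 were tested, and 42 rose and 3 fell in non-responders from Day 4 to Day 9, 19 and 3 in responders (all genes: 23.3% and 27.5% in non-responders, 13.5% and 14.2% in responders). Parp12 rose by 1.17 ± 0.09 (SE, adjusted p = 4.56e-22) and Ifi207 by 1.21 ± 0.10 (SE, adjusted p = 3.05e-19) in non-responders, and in responders they rose by 0.80 ± 0.15 (SE, adjusted p = 3.17e-05) and 1.01 ± 0.14 (SE, adjusted p = 9.06e-07). Ifi208 fell, with -0.53 ± 0.05 (SE, adjusted p = 3.26e-17) and -0.46 ± 0.09 (SE, adjusted p = 0.000147), and so did Ly6e, with -0.28 ± 0.05 (SE, adjusted p = 2.19e-06) and -0.38 ± 0.08 (SE, adjusted p = 0.000376). From Day 9 to Day 17, 21 of the 72 fell and 9 rose in non-responders (all genes: 16.2% and 10.3%). In responders 7 fell and 2 rose (all genes: 3.68% and 1.85%). The shares that rose were near those of all genes. Ifi208 rose (0.23 in non-responders and 0.36 in responders), with Phf11c in non-responders (0.24) and Gbp8 in responders (0.42), and Fcgr1, an IgG receptor of monocytes, fell (-1.03 and -1.06), with Cd274 (PD-L1) in non-responders (-0.49) and Ifi207 in responders (-0.74). From Day 17 to Day 24, 41 of the 72 fell in non-responders and 28 in responders (all genes: 11.3% and 9.31%), with Irgm2 at -0.50 ± 0.07 (SE, adjusted p = 3.19e-07) and Slfn1 at -0.63 in responders and Parp12 at -0.62 ± 0.09 (SE, adjusted p = 1.42e-07) and Trim30d at -0.39 in non-responders. Ly6e and Trim34a rose in responders (0.25 and 0.16) and Ube2l6, a conjugating enzyme for Isg15, in non-responders (0.73). Against Day 4, 12 of the 72 were higher and 18 lower on Day 24 in non-responders (all genes: 23.8% and 24.8%). Those shares were near or below those of all genes. In responders 1 was higher and 19 were lower (all genes: 7.44% and 9.94%). Day 24 was higher for Apol9a (2.66 in responders and 1.64 in non-responders) and for Ube2l6 in non-responders (1.08). Apol9a is a low-level gene, with a mean of 0.0624 TPM and 14 of 178 libraries at 0. Day 24 was lower for Epsti1 (-0.32 and -0.26), for Ly6c2 in responders (-0.87) and for Ly6e in non-responders (-0.43). On Day 4, 3 of the 71 tested were called higher in responders than in non-responders (all genes: 3.91%), a share near that of all genes, namely Tdrd7 (0.63 ± 0.13, SE, adjusted p = 0.003), Ube2l6 (1.06 ± 0.26, SE, adjusted p = 0.00525) and Ifitm3 (0.64), and on Day 9, 1 of 72 (all genes: 3.63%), Ube2l6 (0.91 ± 0.16, SE, adjusted p = 4.25e-05).

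Markers of blood cells also changed between the days, some in the direction of the members and some against it. From Day 4 to Day 9, 7 of the 7 monocyte genes rose in non-responders, with a median of 1.11, and 6 of 7 in responders, with 0.73, and none of the 7 was at 0 in any library. Their mean log2 CPM ranged over 3.00 to 4.05 on Day 4, 4.23 to 5.80 on Day 9, 3.58 to 4.63 on Day 17 and 2.95 to 4.96 on Day 24 in non-responders, and over 2.93 to 4.54, 4.12 to 5.42, 3.15 to 4.58 and 2.86 to 4.00 in responders. From Day 9 to Day 17, when few members moved, 7 and 5 of the 7 fell. Between Days 4 and 9, 6 of 6 T cell genes fell in each group, and 6 of 7 neutrophil genes rose in non-responders (median 0.89) and 3 of 7 in responders (median 0.42). B cell genes fell over that interval, 6 of 6 in non-responders (median -0.30) and 4 of 6 in responders (median -0.33). Platelet genes fell too, 4 of 5 in non-responders and 1 of 5 in responders. From Day 17 to Day 24, when the members fell, 5 of 7 monocyte genes fell in non-responders (median -0.45) and 3 in responders (median -0.44). Of the 7 neutrophil genes 2 fell in non-responders (median -0.31), and 5 fell and 1 rose in responders (median -0.81). Of 5 NK cell genes 3 fell in each group, and of 5 platelet genes 4 fell in non-responders and 1 in responders. Of 6 B cell genes 4 rose in responders (median 0.40) and 1 in non-responders (median 0.08). Of 6 red cell genes 1 rose from Day 4 to Day 9 in non-responders (median -0.01) and 0 in responders (median -0.19). From Day 17 to Day 24, 3 of the 6 rose in non-responders (median 0.57) and 0 in responders (median 0.10). The part of the neutrophil, T cell, B cell, NK cell and platelet genes in these changes was not tested.

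With the mean of the monocyte genes as a covariate, the Day 9 counts came to 5 members higher and 8 lower in non-responders, in place of 38 and 1, and to 4 higher and 5 lower in responders, in place of 18 and 2. In the same fits 38.8% and 19.4% of all genes were called in either direction. Oas1g, Oas2, Mx1 and Ifi204 stayed above 0 in that fit, at 0.50, 0.38, 0.37 and 0.07 in non-responders, while Isg15 came to -0.95, Rsad2 to -0.47 and Oas1a to -0.31. From Day 17 to Day 24 the fit left 28 members lower in non-responders and 16 in responders, where 11.7% and 11.1% of all genes were called in either direction. Over the 178 libraries, 9 members varied less around the monocyte mean than by themselves, among them Ifi204, whose SD was 0.652 alone and 0.324 as a difference from that mean. The covariate changes with the day itself, so the fit does not separate the day from the monocyte genes.

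The second question was whether responders and non-responders differed on a given day. On Day 4, before treatment, 7 of 47 members were called higher in responders and 0 lower, where 3.91% of all genes were called higher and 0.301% lower. Isg20 had 1.17 ± 0.25 (SE, adjusted p = 0.003), Rsad2 1.24 ± 0.27 (SE, adjusted p = 0.003) and Isg15 1.03 ± 0.23 (SE, adjusted p = 0.00348). Irf7 followed with 0.86 ± 0.23 (SE, adjusted p = 0.0106), Ifit1 with 0.68 ± 0.21 (SE, adjusted p = 0.0379), Oas3 with 0.61 ± 0.15 (SE, adjusted p = 0.00547) and Oasl2 with 0.61 ± 0.15 (SE, adjusted p = 0.00712). In responders on Day 4 Isg20 was at 8.46, 9.95 and 11.68 log2 CPM, Rsad2 at 7.34, 9.35 and 11.14 and Isg15 at 5.04, 6.75 and 8.41. In non-responders Isg20 was at 7.70, 8.91 and 10.19, Rsad2 at 6.99, 8.08 and 9.41 and Isg15 at 4.37, 5.68 and 6.92. The ranges overlapped widely, and the highest responder libraries were those of responder 8. On log2(TPM + 1), where the median of all genes was -0.449, Irf7, Oasl2, Oas3 and Ifit1 turned to values below 0, and relative to that median they stood at 0.37, 0.28, 0.27 and 0.27. The median log2 fold change of the 47 members was 0.12, beside -0.005 for all genes. By limma on log2(TPM + 1) and log2(TPM + 0.1) each member called on Day 4 was lower in responders. There the median of all genes was -0.449 and -0.733, and 19 and 25 of the 34 members tested were above it.

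On Day 9, 3 members, the same Isg20, Rsad2 and Isg15, were called higher in responders and 0 lower (all genes: 3.63% and 0.0159%). Isg20 had 0.88 ± 0.16 (SE, adjusted p = 6.38e-05), Rsad2 0.91 ± 0.17 (SE, adjusted p = 0.000103) and Isg15 0.88 ± 0.17 (SE, adjusted p = 0.000112). Isg20 was at 8.78, 10.04 and 10.68 in responders and 7.85, 9.09 and 10.12 in non-responders, Rsad2 at 8.79, 10.26 and 10.98 and 7.72, 9.11 and 10.29, and Isg15 at 5.95, 7.34 and 8.23 and 5.16, 6.30 and 7.56. The ranges overlapped for each of the 3. By adjusted p alone 9 members were higher and 3 lower, where 9.43% and 3.96% of all genes were. The median of the members was -0.07, with 16 of 47 above 0. By limma on log2(TPM + 1) and log2(TPM + 0.1) each member called on Day 9 was lower in responders. There the median of all genes was -0.433 and -0.68, and relative to it the median of the members was -0.044 and -0.025.

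On Days 17 and 24 edgeR called 0 members at both thresholds (all genes: 0.264% and 0.297%), with 3 and 11 members at an unadjusted p below 0.05, and DESeq2 called 0 and 0. On Day 24 adjusted p alone gave 3 members lower in responders (all genes: 5.14%), namely Samd9l (-0.37 ± 0.08, SE, adjusted p = 0.00337), Pnpt1 (-0.39 ± 0.06, SE, adjusted p = 0.000758) and Ifi35 (-0.14 ± 0.04, SE, adjusted p = 0.0388).

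**Figure D4:**
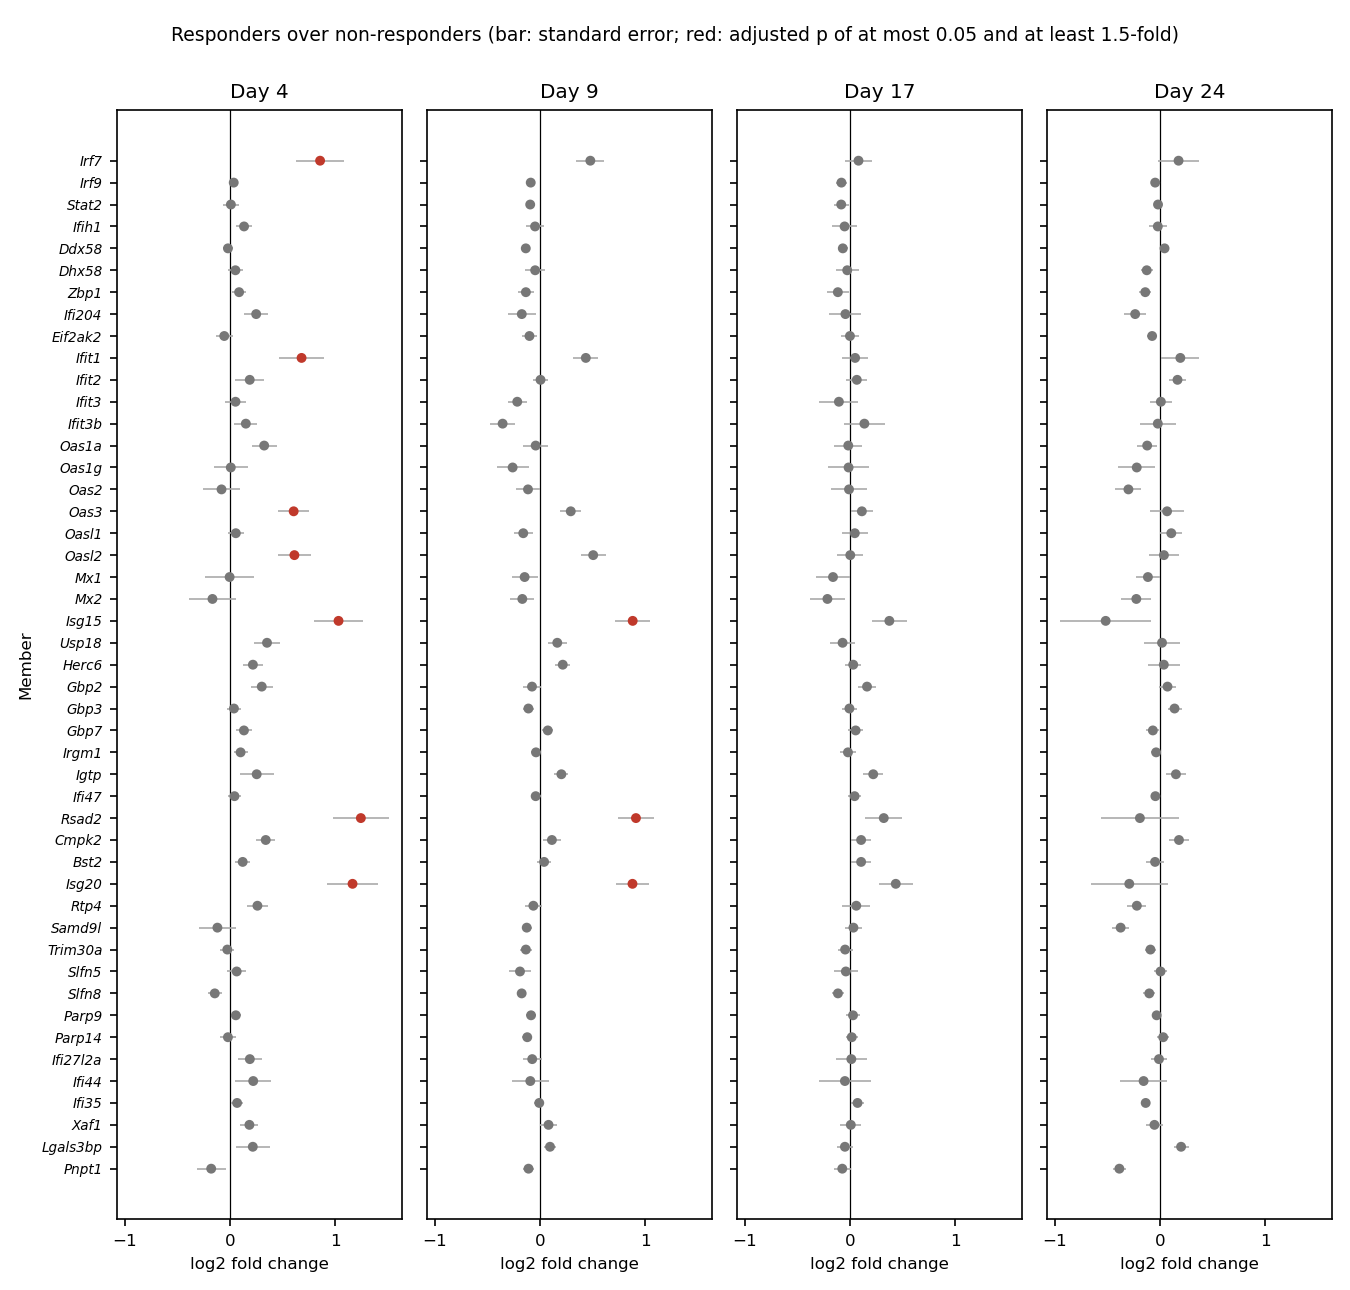
Log2 fold change of responders over non-responders (horizontal axes) for each of the 47 members on each day, with bars for the standard error and red points where a member was called. Red points number 7 on Day 4, 3 on Day 9 and 0 on Days 17 and 24.

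Leaving out 1 responder at a time, Isg20, Rsad2 and Isg15 were called in each of the 15 fits on both days, and the Day 9 count stayed at 3 while the Day 4 count fell to as few as 3. Without both Day 4 libraries of responders 2 and 8, 0 members were called on Day 4, and Isg20, Rsad2 and Isg15 had 0.79, 0.81 and 0.63. Within the 4-digit ear tags alone edgeR called 0 members on Day 4, with Isg20 at 0.98, Rsad2 at 0.96 and Isg15 at 0.81. Within the 3-digit tags it also called 0, with 1.38, 1.48 and 1.26. On Day 9 the 4-digit series gave 0 calls, with 0.45, 0.47 and 0.38, and the 3-digit series 4, with 0.87, 0.92 and 0.87. With the series as a covariate the counts stayed at 7 and 3. The shares of all genes called within each series and without those 2 libraries are not given here. Fewer mice also make a call harder to reach, so these counts do not set the members apart from other genes.

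Red cell genes moved with these members. On Day 4, 3 of the 6 red cell genes (4 globins, Alas2 and Slc4a1) were called higher in responders, with a median log2 fold change of 1.01, and on Day 9, 6 of 6, with 0.83. None of the 6 was at 0 in any library. Their mean log2 CPM ranged over 14.24 to 17.30 in responders and 13.48 to 16.16 in non-responders on Day 4, and over 14.65 to 16.52 and 13.72 to 15.88 on Day 9. On Day 4 the monocyte (0.38), neutrophil (0.40) and platelet (0.46) genes also had medians above 0, with 0 of 7, 1 of 7 and 0 of 5 called higher, and with the monocyte mean as a covariate 0 members were called that day. The members called without it stayed above 0 in that fit, and their sizes there are not given here. With the red cell mean as a covariate 0 members were called on either day. Isg20, Rsad2 and Isg15 then had 0.08, 0.09 and 0.09 on Day 4 and 0.02, 0.02 and 0.06 on Day 9. The red cell genes themselves differed by response, so the red cell fit does not separate response from these genes. The shares of all genes called in the covariate fits of Days 4 and 9 are not given here. Their counts of 0 thus do not set the members apart from other genes.

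Across the 178 libraries 5 of the 47 members varied less around the red cell mean than by themselves. The SD of Isg20 was 0.769 alone and 0.146 as a difference from the red cell mean, that of Rsad2 0.867 and 0.349, and that of Isg15 0.830 and 0.399. Irf7 and Ifit1 were the other 2, whereas for Oas2 the SD went from 0.714 to 1.06. The libraries share their scaling between both quantities. For the rise from Day 4 to Day 9 the red cell covariate gave 29 members higher in responders and 38 in non-responders, where 37.8% and 56.6% of all genes were called in either direction.

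**Figure D5:**
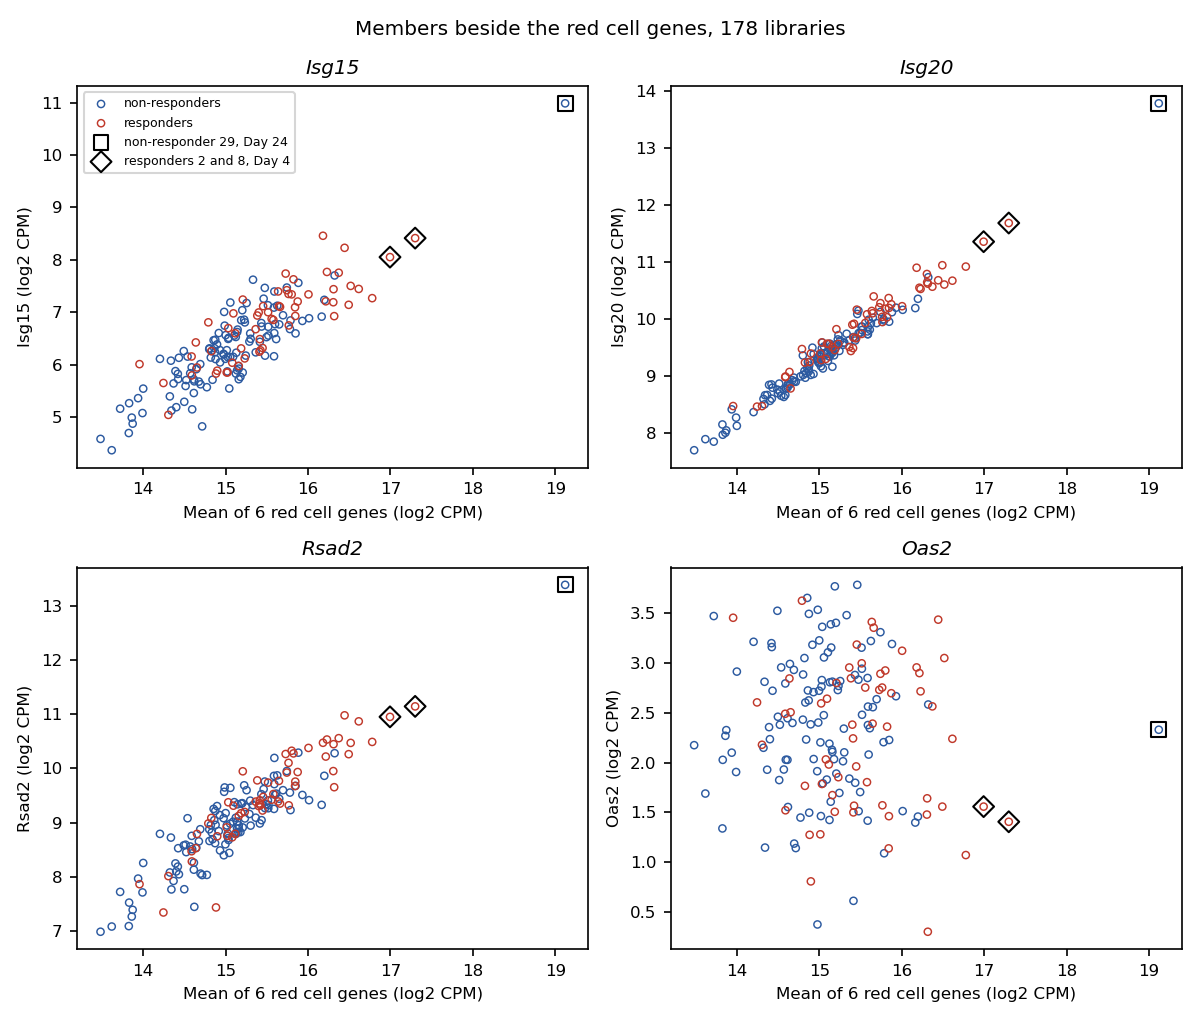
Log2 CPM of Isg15, Isg20, Rsad2 and Oas2 (vertical axes) against the mean log2 CPM of 6 red cell genes (horizontal axes) in 178 libraries, responders in red and non-responders in blue, with the Day 24 library of non-responder 29 as a black square and the Day 4 libraries of responders 2 and 8 as black diamonds. Isg20 lies along a narrow band (SD of the difference from the red cell mean 0.146), and Oas2 does not (1.06).

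The third question was whether the change over time differed between responders and non-responders. From Day 9 to Day 17 edgeR called 0 members (all genes: 0.0584%), with 2 at an unadjusted p below 0.05. From Day 4 to Day 24, 3 members were called, all lower in responders (all genes called lower: 2.1%). The difference of the log2 changes was -1.41 ± 0.36 (SE, adjusted p = 0.0189) for Isg20, -1.50 ± 0.39 (SE, adjusted p = 0.0224) for Isg15 and -1.39 ± 0.38 (SE, adjusted p = 0.0252) for Rsad2, and for Isg15 it was above 0 on log2(TPM + 1) but -0.31 relative to the median of all genes on that scale. Of the pathway genes Socs3 (-0.69), Ifitm2 (-0.70) and Ube2l6 (-1.29) were lower in the same comparison. By limma on log2(TPM + 0.1), where the median of all genes was 0.603, each member called in it was higher in responders. Of the 35 members tested there, 27 lay below that median. In non-responders Isg20 went from 7.70, 8.91 and 10.19 on Day 4 to 8.56, 9.42 and 13.78 on Day 24, a rise of 1.09 ± 0.23 (SE, adjusted p = 3.41e-05), non-responder 29 having the highest library. Responder levels went from 8.46, 9.95 and 11.68 to 9.23, 9.56 and 10.92, a change of -0.36 ± 0.25 (SE, adjusted p = 0.33). Isg15 rose by 1.20 ± 0.26 (SE, adjusted p = 6.14e-05) and Rsad2 by 1.37 ± 0.23 (SE, adjusted p = 9.09e-07) in non-responders, and the responder values were -0.34 ± 0.24 (SE, adjusted p = 0.327) and -0.06 ± 0.28 (SE, adjusted p = 0.915). Isg15 stood at 4.83, 6.15 and 10.98 in non-responders and 5.85, 6.28 and 7.45 in responders on Day 24, and Rsad2 at 8.03, 8.97 and 13.38 and 8.73, 9.20 and 10.87.

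When that library of non-responder 29 was left out, the 3 differences of change came to -0.71 for Isg20, -0.56 for Isg15 and -0.69 for Rsad2, and 0 members were called. The rises in non-responders from Day 4 to Day 24 were then 0.34, 0.20 and 0.61, with Isg15 no longer called. With the mouse as a replicate block the differences were -0.84, -0.70 and -0.82, with 0 members called, and Isg15 in non-responders came to 0.44 without a call. The difference of changes was also called for 0 members without the Day 4 libraries of responders 2 and 8, and with the monocyte mean as a covariate. The red cell genes moved with these members over this interval, with 5 of 6 higher on Day 24 than on Day 4 in non-responders (median 1.01) and 4 of 6 called lower in the difference of changes (median -1.21). Of the 7 monocyte and 7 neutrophil genes 2 and 2 were called lower there (medians -0.53 and -0.52). The mean log2 CPM of the red cell genes ranged over 14.40 to 19.12 in non-responders and 14.83 to 16.78 in responders on Day 24. With the red cell mean as a covariate the differences of Isg20, Isg15 and Rsad2 were 0.003, 0.075 and 0.043. That covariate itself changed differently in the response groups, so the fit does not separate the 2. The shares of all genes called in these alternative fits are not given here. Their counts of 0 thus do not show whether the members or most genes lost their calls.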

How the data were processed

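The 47 members, their role groups and the pathway and marker lists were chosen with earlier results of these data known. Blood was drawn into TRIzol, and libraries were made with a SMARTer mRNA-Seq kit from polyadenylated RNA. Per the labels, the authors aligned reads with STAR to mm10. The gene counter and its annotation are not given in the sources used here. The deposited expected counts (estimated counts, 3.14% of values not whole) were rounded to whole numbers, and the deposited TPM values served for levels and for limma. All 55450 gene IDs matched GENCODE M21. Depth ran from 26058965 to 82208666 counts per library, and the number of mice limits the precision.

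Libraries were scaled by TMM and tested with edgeR 4.0.16 (quasi-likelihood, filterByExpr, Benjamini-Hochberg over all genes tested) in R 4.3.3. Log2 CPM used a prior count of 2 and 13688 genes. The standard error is the log2 fold change divided by the root of the F statistic. The test was checked on counts simulated with the same spread for every gene and without an effect of the mouse. That check does not cover repeated libraries of a mouse or libraries of outlying composition. All p-values are two-sided, and mice are the replicates. Libraries of 1 mouse on different days come from the same animal by ear tag, and the mean correlation of their deviations from the group means lay between -0.036 and 0.214 over the pairs of days. The fit with the mouse as a block was an alternative, as were limma 3.58.1, DESeq2 1.42.0, other filters and scalings, the ear tag series and leaving out mice. The covariate fits and those without 3 libraries were chosen after seeing the data. Values by group were given for the 3 members with the smallest p in each direction and comparison, the first of each role group from Day 4 to Day 9 in non-responders, and a set of well-known members, and from the pathway lists for the first 2 in each direction and comparison, except for an item that is not reported here.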

Additional observations from a re-analysis of the deposited data

Results flagged for a closer look

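The 3 members Isg15, Isg20 and Rsad2 differed between responders and non-responders in their change from Day 4 to Day 24 by the test of that difference. The difference of the log2 changes (responders minus non-responders) was -1.50 for Isg15, -1.41 for Isg20 and -1.39 for Rsad2. All were past an adjusted p of 0.05 in edgeR's quasi-likelihood test. Without the Day 24 library of non-responder 29, or with the mouse as a block, none of the 3 was called. The same held without the Day 4 libraries of responders 2 and 8, and with the mean of the monocyte genes as a covariate. In this comparison 4 of 6 red cell genes were themselves called lower (median -1.21), and with their mean as a covariate the values of Isg15, Isg20 and Rsad2 were 0.075, 0.003 and 0.043, with none called. The shares of all genes called in these alternative fits are not given here.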

How the results depend on the processing

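The rise from Day 4 to Day 9 and the fall from Day 17 to Day 24 kept the direction of their counts in each alternative run, except that with the monocyte covariate more members fell than rose by Day 9. The causes of the shifts below were not tested. Limma on TPM tested only members above its filter, and the TPM scale is set by a total that haemoglobin dominates. On log2(TPM + 0.1) the median of all genes was -0.73 and -0.68 in responders against non-responders on Days 4 and 9. Relative to the median of all genes on each TPM scale, the values given as turned there had the direction of the edgeR value, except those of Isg20, and on log2(TPM + 1) of Rsad2, in non-responders Day 24 against Day 17. Without the filter on low counts, the number of members called was 4 for responders against non-responders on Day 4. Over all comparisons 25 calls of members were lost there, 4 with haemoglobin genes removed before scaling and 3 with DESeq2. With limma on log2(TPM + 1), the number of members called was 4 (all lower) for responders against non-responders on Day 4, 10 (all lower) for responders against non-responders on Day 9, 3 (all higher) for responders Day 9 against Day 4, 0 for responders Day 17 against Day 9, 2 (all lower) for responders Day 24 against Day 17, 0 for responders Day 24 against Day 4, 13 (all higher) for non-responders Day 9 against Day 4, 27 (all lower) for non-responders Day 17 against Day 9, 19 (all lower) for non-responders Day 24 against Day 17 and 35 (2 higher and 33 lower) for non-responders Day 24 against Day 4. Signs turned there for Irf7 (-0.079), Oasl2 (-0.17), Oas3 (-0.18) and Ifit1 (-0.18) in responders against non-responders on Day 4, for Igtp (-0.098) in non-responders Day 17 against Day 9, for Rsad2 (-0.083) and Isg20 (-0.099) in non-responders Day 24 against Day 17, for Isg15 (-0.020), Gbp7 (-0.16) and Samd9l (-0.076) in non-responders Day 24 against Day 4, for Isg15 (0.061) in the difference of the change from Day 4 to Day 24. With limma on log2(TPM + 0.1), the number of members called was 21 (all lower) for responders against non-responders on Day 4, 27 (all lower) for responders against non-responders on Day 9, 3 (all higher) for responders Day 9 against Day 4, 0 for responders Day 17 against Day 9, 2 (all lower) for responders Day 24 against Day 17, 0 for responders Day 24 against Day 4, 12 (all higher) for non-responders Day 9 against Day 4, 21 (all lower) for non-responders Day 17 against Day 9, 20 (all lower) for non-responders Day 24 against Day 17 and 6 (all higher) for the difference of the change from Day 4 to Day 24. Signs turned there for Irf7 (-0.083), Oasl2 (-0.21), Oas3 (-0.29) and Ifit1 (-0.24) in responders against non-responders on Day 4, for Ddx58 (0.016) in responders Day 24 against Day 4, for Igtp (-0.11) in non-responders Day 17 against Day 9, for Rsad2 (-0.084) and Isg20 (-0.099) in non-responders Day 24 against Day 17, for Isg15 (-0.021), Gbp7 (-0.28) and Samd9l (-0.074) in non-responders Day 24 against Day 4, for Isg15 (0.063) in the difference of the change from Day 4 to Day 24. Within the 4-digit ear tags, the number of members called was 0 for responders against non-responders on Day 4 and 0 for responders against non-responders on Day 9. Within the 3-digit ear tags, the number of members called was 0 for responders against non-responders on Day 4. With mean log2 CPM of the red cell genes as a covariate, the number of members called was 0 for responders against non-responders on Day 4, 0 for responders against non-responders on Day 9, 31 for responders Day 9 against Day 4, 6 for responders Day 17 against Day 9 and 0 for the difference of the change from Day 4 to Day 24. Signs turned there for Irf7 (-0.006) and Ifit1 (-0.12) in responders against non-responders on Day 4, for Rsad2 (-0.060) and Isg20 (-0.087) in non-responders Day 24 against Day 17, for Isg15 (-0.18) and Isg20 (-0.027) in non-responders Day 24 against Day 4, for Rsad2 (0.043), Isg15 (0.075) and Isg20 (0.003) in the difference of the change from Day 4 to Day 24. With mean log2 CPM of the monocyte genes as a covariate, the number of members called was 0 for responders against non-responders on Day 4, 9 for responders Day 9 against Day 4, 0 for responders Day 17 against Day 9, 16 for responders Day 24 against Day 17, 9 for responders Day 24 against Day 4, 13 for non-responders Day 9 against Day 4, 13 for non-responders Day 17 against Day 9 and 0 for the difference of the change from Day 4 to Day 24. Signs turned there for Ifih1 (-0.026), Rtp4 (-0.051), Oas1a (-0.21) and Slfn5 (-0.088) in responders Day 9 against Day 4, for Dhx58 (-0.12), Cmpk2 (-0.19), Rsad2 (-0.47), Parp9 (-0.006), Eif2ak2 (-0.053), Irf7 (-0.073), Ifih1 (-0.13), Zbp1 (-0.057), Gbp2 (-0.075), Herc6 (-0.13), Usp18 (-0.21), Oas3 (-0.19), Ifit1 (-0.13), Isg15 (-0.95), Oasl1 (-0.066), Bst2 (-0.26), Irgm1 (-0.087), Oas1a (-0.31), Slfn5 (-0.027) and Ifit3 (-0.069) in non-responders Day 9 against Day 4, for Eif2ak2 (0.016), Ifih1 (0.19), Oas1g (0.13) and Ifi204 (0.12) in non-responders Day 17 against Day 9. Without the Day 4 libraries of responders 2 and 8, the number of members called was 0 for responders against non-responders on Day 4, 12 for responders Day 24 against Day 4 and 0 for the difference of the change from Day 4 to Day 24. By adjusted p alone, the number of members called was 12 for responders against non-responders on Day 9 and 3 for responders against non-responders on Day 24. With a fold change of at least 1.5 required, the number of members called was 6 for responders Day 9 against Day 4, 12 for responders Day 24 against Day 17, 3 for responders Day 24 against Day 4, 14 for non-responders Day 9 against Day 4, 0 for non-responders Day 17 against Day 9, 11 for non-responders Day 24 against Day 17 and 5 for non-responders Day 24 against Day 4. With DESeq2, signs turned for Rsad2 (-0.14) and Isg20 (-0.18) in non-responders Day 24 against Day 17. Without the Day 24 library of non-responder 29, the number of members called was 0 for the difference of the change from Day 4 to Day 24. Signs turned there for Rsad2 (-0.14) and Isg20 (-0.18) in non-responders Day 24 against Day 17. With the mouse as a replicate block, the number of members called was 0 for the difference of the change from Day 4 to Day 24. With ear tag series as a covariate, the number of members called was 5 for the difference of the change from Day 4 to Day 24. With mean log2(TPM + 1) of the members, the change of the member mean was 0.078 for responders Day 17 against Day 9, 0.23 for non-responders Day 9 against Day 4 and -0.30 for non-responders Day 24 against Day 4. The block also ended the call of Gbp2 (-0.171) in non-responders Day 24 against Day 4, beside those of Rsad2 and Isg20 in non-responders Day 24 against Day 17 and Isg15 in non-responders Day 24 against Day 4, and, beyond the 3 in the difference of changes, ended no other call of a named member. Leaving out 1 responder at a time gave counts of 3 to 7 for responders against non-responders on Day 4, 16 to 23 for responders Day 9 against Day 4, 1 to 3 for responders Day 17 against Day 9, 28 to 38 for responders Day 24 against Day 17 and 14 to 24 for responders Day 24 against Day 4. On Day 4 the lowest counts came without responder 2 or responder 8 (3 each) and without responder 10 (4), and the highest from Day 9 to Day 17 in responders without responder 4 (3). The lowest count from Day 4 to Day 24 in responders came without responder 2. With the Day 17 library of non-responder 24 as a responder, each count stayed within 1.5 times, and the calls of Herc6 in responders Day 24 against Day 17, of Ifih1 in non-responders Day 17 against Day 9 and of Rsad2 and Isg20 in non-responders Day 24 against Day 17 were lost. Whole-blood depth apart from haemoglobin limits members of low level, such as Ifi44.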
